A study of Mus musculus with 18 samples.

Results

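Genes that build ribosomes in the nucleolus were followed in injured mouse livers with and without activation of MycER, in which MYC, a transcription factor, is joined to the hormone-binding part of the estrogen receptor. They are 52 named genes for RNA polymerase I and its factors (7), abundant nucleolar RNA-binding proteins (5), box C/D particles (4), box H/ACA particles (4) and assembly of the small (16) and large (16) ribosomal subunits. Members were picked by gene name and known role, with earlier results of these data in view, and all 52 were found among the 34937 genes counted.

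The data are poly-A RNA libraries from 18 livers, 1 per mouse, in 6 groups of 3. Every mouse had been given an intraperitoneal injection of carbon tetrachloride at 0.5 µL per g of body weight, which injures hepatocytes around the central vein. By their labels, groups 1OFF, 2OFF, 3OFF and 7OFF are livers 1, 2, 3 and 7 days after the injury, without MycER activation. Their names could also mean days since MycER was switched off, a reading that the labels do not state and that would change what each OFF comparison sets apart. Group 12ON holds livers 12 days after the injury in which MycER was activated, for which the labels give tamoxifen at 1 mg a day, and group 12 holds livers 12 days after the injury without activation. The labels do not give the promoter or cell type that drives MycER, the sex of the mice, whether group 12 received tamoxifen, or whether MycER had been active earlier in the OFF mice. By their labels the OFF groups differ from 12ON both in activation and in days after injury, and these cannot be told apart.

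In the nucleolus, RNA polymerase I transcribes a precursor of 3 ribosomal RNAs. Box C/D particles then methylate this RNA, box H/ACA particles convert uridines in it to pseudouridine, and assembly factors cut, fold and package it with ribosomal proteins into the small and large subunits. Ribosome production in the liver rises when hepatocytes prepare to divide, and MYC is known to bind near the start sites of many of these genes. Poly-A libraries report the messenger RNAs of these factors, not ribosomal RNA or ribosomes.

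The libraries held 23.1 to 75.3 M gene counts, and 17789 genes passed the filter on low counts, among them all 52, whose smallest raw count in any library was 93. Levels below are normalised CPM, counts brought to a common library size after TMM scaling, and a gene passed where the adjusted p of edgeR's quasi-likelihood test, corrected over all 17789 genes, was below 0.05. Defining hepatocyte markers were present in every library, although 8 of 9 tested were lower in 12ON than in group 12 and 1 higher, and the 9 summed to 34225 to 43204 CPM in 12ON and 119343 to 128676 CPM in group 12. No marker of any of the 9 cell type lists was at 0 in a whole group. In 12ON relative to group 12, 7 of 7 tested cholangiocyte markers and 10 of 10 markers of cycling cells were higher, while 7 of 7 sinusoidal endothelial markers, 5 of 8 Kupffer cell and macrophage markers and 4 of 7 lymphocyte markers were lower. Of the other lists in that comparison, 4 of 7 stellate cell markers were higher, and no neutrophil or erythroid marker passed. Of all genes tested there, 24.0% were higher and 22.6% lower. The part these shifts play in the results below was not tested, and in bulk liver fewer cells of a type and less RNA per cell cannot be told apart. Myc lay at 5.14 to 6.96 CPM in 12ON and 6.23 to 9.54 CPM in group 12, and gene totals do not separate the fusion from the endogenous transcript. Xist, the RNA of the inactive X chromosome, was high in 1 library of each group except 1OFF. The mitochondrial share of counts was 6.42% to 7.11% in 12ON and 4.80% to 5.25% in group 12. In the OFF groups it was 6.16% to 7.33% (1OFF), 6.69% to 7.00% (2OFF), 5.36% to 7.18% (3OFF) and 5.54% to 6.19% (7OFF). As every other library lay above group 12, a fit term for this share cannot be fully told apart from group 12 itself.

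The first comparison of the design set 12ON against group 12, which by their labels differ in MycER activation at the same time after injury. As the labels do not say whether group 12 received tamoxifen, effects of tamoxifen itself and of MycER activation cannot be told apart. Esr1, an estrogen receptor gene, lay at 9.05 to 11.4 CPM in 12ON and 33.5 to 41.2 CPM in group 12. The part of this difference was not tested. Ribosome assembly genes were higher as a broad block. Of the 52, 46 were higher in 12ON and 2 were lower, against 24.0% of all 17789 genes higher and 22.6% lower. The median log2 fold change of the 52 was 0.96, or 0.00 over all genes tested. At least 2-fold higher were 24 of the 52, against 9.90% of all genes. The groups did not overlap, with 12ON higher, for 47 of the 52, against 30.0% of all genes. The 52 together summed to 3030, 3607 and 3217 CPM in 12ON and to 1421, 1558 and 1462 CPM in group 12, so each 12ON liver lay well above each liver of group 12. Before any scaling factor, they took 0.350% to 0.448% of the counts in 12ON and 0.119% to 0.134% in group 12. TMM factors also differed between these groups, at 1.16 to 1.24 in 12ON and 0.790 to 0.918 in group 12. Scaled to library totals alone, the median of all genes moved to 0.49, 9130 of all genes were higher and 1403 lower in place of 4269 and 4029, and 50 of the 52 were higher and none lower. A term for the mitochondrial share left 43 of the 52 higher and none lower, with 21.5% of all genes called in place of 46.6%, and a term for high or low Xist left 46 higher and 2 lower.

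**Figure D1:**
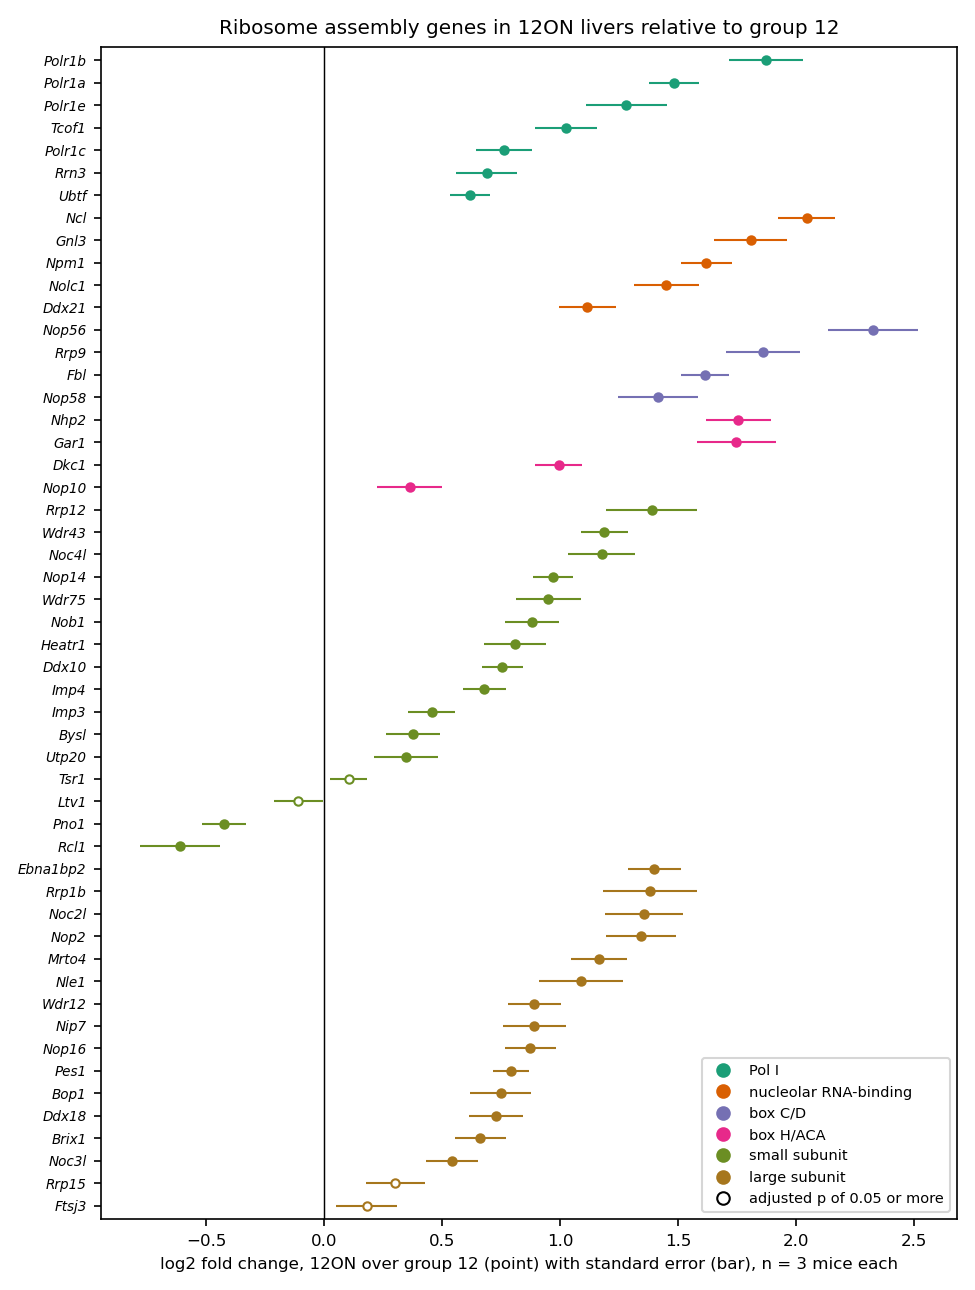
Log2 fold change of the 52 ribosome assembly genes in 12ON livers relative to group 12 (point) with its standard error (bar), 3 mice a group, coloured by role, with open points for an adjusted p of 0.05 or more. Of the genes, 46 lie to the right with filled points, and Pno1 and Rcl1 lie to the left with filled points (scaled to library totals alone, Pno1 is at 0.07, Rcl1 is at -0.12 and neither passes).

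Promoter sequence is shown for 7 of these genes, because the E-box CACGTG is the best known site of MYC and its partner MAX and the genes moved together. Windows from 250 bases before to 50 after the start were taken from RefSeq on GRCm38.p6, where 47 of the 52 genes matched. Not matched were Tcof1, Npm1, Fbl, Rrp12 and Bop1. CACGTG, which reads the same on both strands, lay in 10 of these 47 (21.3%), and in 8.09% of the 27025 genes with a window. Of the variants, searched on both strands, CACGCG lay in 13 of the 47 (27.7%, against 10.5% of all genes) and CATGTG in 8 (17.0%, against 15.9%). The 27025 genes include genes that did not pass the filter on low counts here, whereas all 52 members did. The 2 sets are therefore unlike, and whether expressed genes as a whole hold these motifs more often was not tested. A match describes letters and does not show binding. The first 5 genes are those with the most CACGTG matches and the largest fold changes among ties, and the last 2 are the genes with the largest fold changes among those with none. Bases run 5′ to 3′ on the gene's strand, from 250 before to 29 after the start, with CACGTG in capitals.
Rrn3 promoter, chr16:13780449-13780727, plus strand: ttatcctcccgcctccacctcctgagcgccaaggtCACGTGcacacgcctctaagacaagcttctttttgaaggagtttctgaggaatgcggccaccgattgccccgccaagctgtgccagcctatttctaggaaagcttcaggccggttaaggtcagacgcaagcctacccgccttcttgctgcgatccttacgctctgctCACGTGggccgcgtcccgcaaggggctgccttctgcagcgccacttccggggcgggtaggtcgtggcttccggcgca
Nop2 promoter, chr6:125131633-125131911, plus strand: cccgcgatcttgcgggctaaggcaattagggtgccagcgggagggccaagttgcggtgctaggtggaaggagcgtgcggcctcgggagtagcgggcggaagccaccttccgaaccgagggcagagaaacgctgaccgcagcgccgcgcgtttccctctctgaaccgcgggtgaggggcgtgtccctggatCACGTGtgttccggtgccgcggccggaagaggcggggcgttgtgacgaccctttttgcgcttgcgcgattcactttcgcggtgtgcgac
Wdr43 promoter, chr17:71615965-71616243, plus strand: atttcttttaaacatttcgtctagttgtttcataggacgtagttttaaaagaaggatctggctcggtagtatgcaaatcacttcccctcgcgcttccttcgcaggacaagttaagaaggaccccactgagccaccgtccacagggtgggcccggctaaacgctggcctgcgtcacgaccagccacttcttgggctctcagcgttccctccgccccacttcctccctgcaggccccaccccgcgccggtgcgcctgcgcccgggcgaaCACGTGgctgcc
Nle1 promoter, chr11:82908367-82908645, minus strand: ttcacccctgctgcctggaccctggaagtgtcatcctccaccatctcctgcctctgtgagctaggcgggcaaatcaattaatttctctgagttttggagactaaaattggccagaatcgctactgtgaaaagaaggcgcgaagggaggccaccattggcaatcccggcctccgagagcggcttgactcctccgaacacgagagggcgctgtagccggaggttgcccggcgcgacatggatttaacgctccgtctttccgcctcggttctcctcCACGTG
Pes1 promoter, chr11:3963725-3964003, plus strand: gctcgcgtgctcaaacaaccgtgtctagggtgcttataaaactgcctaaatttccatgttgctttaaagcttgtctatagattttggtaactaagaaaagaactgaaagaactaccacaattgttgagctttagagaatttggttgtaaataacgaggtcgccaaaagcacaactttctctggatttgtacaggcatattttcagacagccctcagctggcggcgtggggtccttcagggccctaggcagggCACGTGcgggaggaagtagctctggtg
Nop56 promoter, chr2:130274162-130274440, plus strand: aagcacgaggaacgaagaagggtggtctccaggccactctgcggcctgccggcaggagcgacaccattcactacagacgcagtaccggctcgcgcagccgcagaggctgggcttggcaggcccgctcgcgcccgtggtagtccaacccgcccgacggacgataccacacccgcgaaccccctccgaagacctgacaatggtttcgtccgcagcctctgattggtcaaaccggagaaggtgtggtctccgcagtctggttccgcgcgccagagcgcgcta
Ncl promoter, chr1:86359427-86359705, minus strand: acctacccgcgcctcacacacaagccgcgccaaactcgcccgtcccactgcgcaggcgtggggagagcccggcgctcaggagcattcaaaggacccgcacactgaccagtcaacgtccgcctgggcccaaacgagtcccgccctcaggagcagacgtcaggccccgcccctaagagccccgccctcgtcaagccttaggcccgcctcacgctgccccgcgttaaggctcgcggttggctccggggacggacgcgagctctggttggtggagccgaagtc
Genes that were higher in 12ON were found with and without the motif. Of the 10 genes with CACGTG, 7 were higher in 12ON and their median was 0.68 on the log2 scale. Of the 37 without it, 34 were higher, with a median of 0.97. Rrn3, with 2 matches at -215 and -48 from the start, had a fold change below the median of the 52. Nop56 and Ncl, which head the list of fold changes, held neither CACGTG nor the CACGCG and CATGTG variants in this window. Utp20, Imp4, Pno1, Tsr1 and Ltv1 are the other 5 genes with CACGTG. Of these, Pno1 was lower in 12ON, but not when scaled to library totals (0.07), and it did not pass with the mitochondrial term. Tsr1 and Ltv1 passed only on library totals, as higher.

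All 7 polymerase I genes were higher in 12ON. Their log2 fold changes ran over 0.62 to 1.87, and the median was 1.02. Polr1b encodes the second largest of the core subunits that form the active centre (chromosome 2, 129100995 to 129126594 in GRCm38). Its level was 42.9, 54.0 and 47.6 CPM in 12ON and 12.6, 14.2 and 12.7 CPM in group 12. The lowest 12ON liver lay at over 3 times the highest liver of group 12. The log2 fold change was 1.87 ± 0.16 (SE, n = 3 each, adjusted p = 6.46e-07). Polr1a, the largest subunit, had 51.5, 51.5 and 46.1 CPM in 12ON and 18.8, 17.7 and 17.1 CPM in group 12 (log2 1.48 ± 0.11). Polr1e, a subunit specific to polymerase I, had 13.9, 18.4 and 16.8 CPM in 12ON and 6.33, 7.38 and 6.48 CPM in group 12 (log2 1.28 ± 0.17). Tcof1, which encodes treacle, a nucleolar phosphoprotein needed for ribosomal RNA transcription, had 23.1, 23.8 and 21.2 CPM in 12ON and 12.0, 11.2 and 10.4 CPM in group 12 (log2 1.02 ± 0.13). None of these genes overlapped between the groups. The other 3 had smaller values. Polr1c, a subunit shared with polymerase III, had a log2 fold change of 0.76 ± 0.12, Rrn3, the factor that recruits polymerase I to the promoter, 0.69 ± 0.13, and Ubtf, which binds ribosomal DNA, 0.62 ± 0.09.

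The 5 nucleolar RNA-binding genes were all higher, with a median log2 fold change of 1.62. Ncl encodes nucleolin, an abundant nucleolar protein that binds precursor ribosomal RNA (chromosome 1, 86344719 to 86359400). Its level was 685, 808 and 708 CPM in 12ON and 160.2, 189 and 184 CPM in group 12, with no overlap between the groups. The log2 fold change was 2.04 ± 0.12 (adjusted p = 6.59e-08). Npm1, the histone chaperone nucleophosmin, had 320.3, 398 and 332 CPM in 12ON and 114, 118 and 109.9 CPM in group 12 (log2 1.62 ± 0.11). Gnl3, the nucleolar GTPase nucleostemin, had 66.7, 79.5 and 75.3 CPM in 12ON and 20.2, 23.3 and 19.8 CPM in group 12 (log2 1.81 ± 0.15). In both genes every 12ON liver was above every liver of group 12. Nolc1, a chaperone of small nucleolar particles, changed by 1.45 ± 0.14, and the RNA helicase gene Ddx21 by 1.11 ± 0.12, both on the log2 scale. Ncl and Npm1 alone made up much of the summed level, and the other 50 genes summed to 2025 to 2401 CPM in 12ON and 1146 to 1251 CPM in group 12.

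Box C/D genes had the highest median of the 6 roles, at a log2 fold change of 1.74, and all 4 were higher. Nop56, a core protein of these particles (chromosome 2, 130274430 to 130279313), had 81.7, 109.8 and 106 CPM in 12ON and 17.2, 21.3 and 20.7 CPM in group 12. The lowest 12ON liver was far above the highest of group 12. Its log2 fold change of 2.33 ± 0.19 was the largest of the 52 (adjusted p = 6e-07). Of its exon bases 8.12% are shared with Idh3b on the other strand and with small nucleolar RNA genes, and counting used no strand, so reads in these bases cannot be assigned. Rrp9, a protein of the U3 particle that guides early cleavage (chromosome 9, 106475963 to 106485424), had 32.4, 45.0 and 38.0 CPM in 12ON and 9.60, 11.5 and 10.6 CPM in group 12 (log2 1.86 ± 0.16). Fbl, the methyltransferase fibrillarin, had 67.1, 83.7 and 75.7 CPM in 12ON and 23.4, 23.9 and 26.7 CPM in group 12 (log2 1.61 ± 0.10). Nop58, the partner of Nop56, had 64.0, 85.2 and 75.7 CPM in 12ON and 28.4, 28.7 and 27.3 CPM in group 12 (log2 1.41 ± 0.17). The groups did not overlap for any of the 4.

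The 4 core proteins of box H/ACA particles sit in 1 complex, and all 4 messages were higher. Nhp2 had 56.4, 66.0 and 60.7 CPM in 12ON and 17.4, 18.1 and 18.7 CPM in group 12 (log2 1.75 ± 0.14). Gar1 had 22.7, 30.6 and 25.3 CPM in 12ON and 7.11, 7.89 and 8.36 CPM in group 12 (log2 1.75 ± 0.17). Both stood clear of group 12 in every liver. Dkc1, the pseudouridine synthase dyskerin, had 33.2, 44.5 and 40.3 CPM in 12ON and 20.1, 18.9 and 20.3 CPM in group 12 (log2 0.99 ± 0.10). Nop10, the smallest core protein, had 35.0, 48.3 and 40.2 CPM in 12ON and 31.4, 33.1 and 31.6 CPM in group 12. The lowest 12ON liver lay just above the highest of group 12. Its log2 fold change of 0.36 ± 0.14 passed narrowly (adjusted p = 0.0409), and the call ended without 12ON replicate 2 (0.23), without 12ON replicate 3 (0.38), without group 12 replicate 1 (0.35), 2 (0.39) or 3 (0.35), and with the mitochondrial term (adjusted p = 0.0982). Differences between members in their fold changes were not tested.

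Of the 16 genes of small subunit assembly, 12 were higher and 2 lower, with a median log2 fold change of 0.72. Among early factors that bind the growing transcript, Wdr43 had 47.4, 58.0 and 50.6 CPM in 12ON and 22.8, 22.3 and 23.4 CPM in group 12 (log2 1.19 ± 0.10). Its companions in the same early complex, Wdr75 and Heatr1, changed by 0.95 ± 0.14 and 0.81 ± 0.13. Other proteins of the same early particle were also higher, with log2 fold changes of 1.17 ± 0.14 for Noc4l, 0.97 ± 0.08 for Nop14, its partner in yeast, 0.75 ± 0.08 for the helicase gene Ddx10, 0.68 ± 0.09 for Imp4 and 0.45 ± 0.10 for Imp3, both of which bind the U3 particle. Rrp12, which takes part in export of the small subunit in yeast, had 25.1, 32.0 and 26.2 CPM in 12ON and 10.3, 9.40 and 12.1 CPM in group 12, the largest log2 fold change of this role (1.39 ± 0.19). Nob1, the endonuclease that makes the final cut of 18S ribosomal RNA, had 19.9, 20.4 and 17.4 CPM in 12ON and 9.24, 11.3 and 10.7 CPM in group 12 (log2 0.88 ± 0.12). All of these were clear of group 12 in every liver. Bysl (0.37 ± 0.11) and Utp20 (0.35 ± 0.13) passed with small changes, and their calls ended when single libraries were left out: that of Bysl without 12ON replicate 3 (0.32), and that of Utp20 without 12ON replicate 2 (0.25) or 3 (0.38) or group 12 replicate 2 (0.36) or 3 (0.27).

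Among the small subunit genes, Pno1, Rcl1, Tsr1 and Ltv1 were not higher in 12ON, except that Tsr1 (0.60) and Ltv1 (0.39) passed as higher when scaled to library totals. Pno1, which works with Nob1 at the end of 18S ribosomal RNA (chromosome 11, 17203198 to 17211568), had 21.4, 21.7 and 23.1 CPM in 12ON and 27.6, 32.4 and 28.8 CPM in group 12. Every 12ON liver was below every liver of group 12. The log2 fold change was -0.43 ± 0.09 (adjusted p = 0.00141), but 0.07 when scaled to library totals alone and -0.26 (adjusted p = 0.21) with a term for the mitochondrial share. Rcl1, required in yeast for early cleavages that release the small subunit precursor (chromosome 19, 29101375 to 29143843), had 67.7, 59.9 and 57.5 CPM in 12ON and 90.04, 99.996 and 92.6 CPM in group 12. Again no 12ON liver reached group 12. The log2 fold change was -0.61 ± 0.17 (adjusted p = 0.0081), but -0.12 when scaled to library totals and -0.36 with the mitochondrial term, and neither of these passed. Tsr1, a GTPase-like factor on late precursors, had 60.0, 66.5 and 67.5 CPM in 12ON and 59.2, 65.5 and 56.0 CPM in group 12, with overlapping groups (log2 0.10 ± 0.08, adjusted p = 0.308). Of its exon bases 32.3% are shared with Srr on the other strand, so its level is uncertain. Ltv1, which works in assembly of the small subunit head, had 16.2, 18.5 and 18.2 CPM in 12ON and 17.3, 21.3 and 18.4 CPM in group 12, also overlapping (log2 -0.11 ± 0.11, adjusted p = 0.41).

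**Figure D2:**
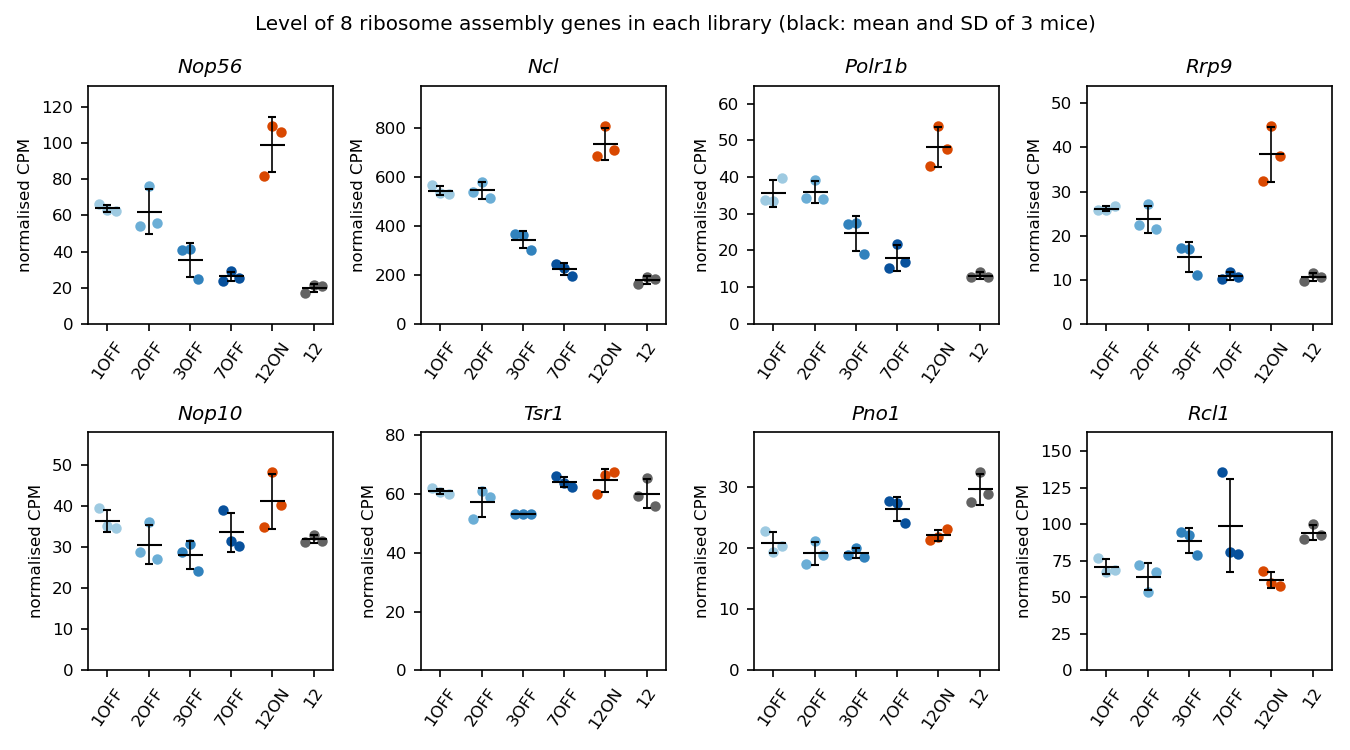
Normalised CPM of 8 ribosome assembly genes in each of the 18 libraries (points), with the mean and SD of 3 mice in black, on linear axes that start at 0. Nop56, Ncl, Polr1b and Rrp9 are highest in 12ON and lower in 3OFF and 7OFF than in 1OFF and 2OFF, Nop10 and Tsr1 overlap between most groups, and Pno1 and Rcl1 are below group 12 in 12ON (on library totals Pno1 is at 0.07 and Rcl1 at -0.12, and neither passes).

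Of the 16 genes of large subunit assembly, 14 were higher, none was lower, and the median log2 fold change was 0.88. Ebna1bp2, a scaffold of early precursors, had 54.2, 67.5 and 61.7 CPM in 12ON and 22.3, 23.6 and 23.6 CPM in group 12 (log2 1.40 ± 0.11). Nop2, a methyltransferase of the large ribosomal RNA, had 42.8, 56.3 and 51.9 CPM in 12ON and 18.2, 21.8 and 19.6 CPM in group 12 (log2 1.34 ± 0.15). Rrp1b had 16.5, 21.0 and 20.1 CPM in 12ON and 7.21, 7.67 and 7.24 CPM in group 12 (log2 1.38 ± 0.20). In each of these every 12ON liver was above every liver of group 12. Noc2l changed by 1.35 ± 0.17, with 20.9% of its exon bases shared with Samd11 on the other strand, while Noc3l, which pairs with NOC2 in yeast, changed by 0.54 ± 0.11. Pes1, Bop1 and Wdr12 form the PeBoW complex, and their log2 fold changes lay close together at 0.79 ± 0.08, 0.75 ± 0.13 and 0.89 ± 0.11. Mrto4, a stand-in for a stalk protein during assembly, changed by 1.16 ± 0.12, and Nle1, which is released by a large ATPase late in assembly, by 1.09 ± 0.18. Smaller changes passed in Nip7 (0.89 ± 0.13), Nop16 (0.87 ± 0.11), the helicase gene Ddx18 (0.73 ± 0.11) and Brix1 (0.66 ± 0.11). Rrp15 (0.30 ± 0.13, adjusted p = 0.0629) and the methyltransferase gene Ftsj3 (0.18 ± 0.13, adjusted p = 0.266) did not pass, but were called higher when scaled to library totals (0.79 and 0.68).

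Compared per kb of exon, the order of the members by level was not the same in both groups. In 12ON the highest levels were those of Npm1 (131 CPM per kb), Ncl (72.0), Fbl (65.1) and Nhp2 (53.2). In group 12 Rcl1 came first (52.3 CPM per kb), followed by Npm1 (42.8) and Imp3 (31.9), and Rcl1 ranked 8th in 12ON with 34.2. Lengths cover all annotated exons of a gene (10188 bases for Ncl), whether or not these livers use them. Across the 52 genes, which are not independent replicates, the log2 fold change had a Spearman rho of -0.20 with the level per kb in group 12. With exon length it was 0.12. The level in group 12 is also the denominator of the fold change, which ties the measures in the first rho by construction.

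Other genes of ribosome biogenesis, 107 listed by role with earlier results of these data known, were also mostly higher. Of the 105 tested, 74 were higher in 12ON and 2 lower, against 24.0% of all genes higher and 22.6% lower. Their median log2 fold change was 0.51. Among 9 other polymerase I factors 4 were higher, namely Taf1c, a subunit of the promoter selectivity factor (12.3 CPM in 12ON and 3.31 CPM in group 12 on average, log2 1.89 ± 0.23), the subunit gene Polr1g (1.52 ± 0.14), Taf1d (1.40 ± 0.12) and Polr1d, which polymerase III shares (1.22 ± 0.13). Among 41 other small subunit factors 27 were higher, with Dhx37 (1.46 ± 0.14), Pdcd11 (1.42 ± 0.14) and Utp4 (1.29 ± 0.11) in front, and 2 were lower, the kinase gene Riok3 (-0.64 ± 0.11) and Nop9 (-0.46 ± 0.10). Among 45 other large subunit factors 36 were higher, led by Ppan (1.48 ± 0.18), Rsl1d1 (1.25 ± 0.11) and Pak1ip1 (1.00 ± 0.10). Of 10 factors that assemble small nucleolar particles 7 were higher, among them the ATPase genes Ruvbl1 (1.61 ± 0.14) and Ruvbl2 (1.38 ± 0.15) and the box H/ACA factor Naf1 (1.54 ± 0.15).

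The second comparison of the design set each OFF group against 12ON. In 1OFF and 2OFF no member passed, and in 3OFF and 7OFF most were lower than in 12ON. Summed over the 52, the level was 2632, 2553 and 2531 CPM in 1OFF, 2380, 2714 and 2407 in 2OFF, 2019, 2070 and 1684 in 3OFF, and 1731, 1779 and 1610 in 7OFF, against 3030, 3607 and 3217 CPM in 12ON. No OFF liver reached the lowest 12ON liver. Markers of other cell types moved too. All 10 markers of cycling cells were lower than in 12ON in 3OFF and 7OFF. None passed in 1OFF and 2OFF, although all 10 had a negative log2 fold change there (median -1.15 and -1.19). Their summed level lay between 171 and 289 CPM in 1OFF livers and between 121 and 405 CPM in 2OFF livers. The 3OFF livers held between 89.2 and 111 CPM, the 7OFF livers between 60.1 and 72.0 CPM, and the 12ON livers between 482 and 622 CPM. Hepatocyte markers were higher than in 12ON for 7 of 9 in 3OFF and 8 of 9 in 7OFF, with sums of 64739 to 89441 CPM in 3OFF, 81939 to 98053 CPM in 7OFF and 34225 to 43204 CPM in 12ON. All 7 cholangiocyte markers were lower in both groups, and 7 of 7 sinusoidal endothelial markers were higher in 3OFF and 5 of 7 in 7OFF. Of all genes, 17.0% were lower and 15.3% higher in 3OFF, and 22.7% lower and 21.4% higher in 7OFF. No marker of any list passed in 1OFF or 2OFF, where 0.00562% and 0% of all genes passed, so this does not show the markers unchanged. The part of these shifts in the results was not tested.

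**Figure D3:**
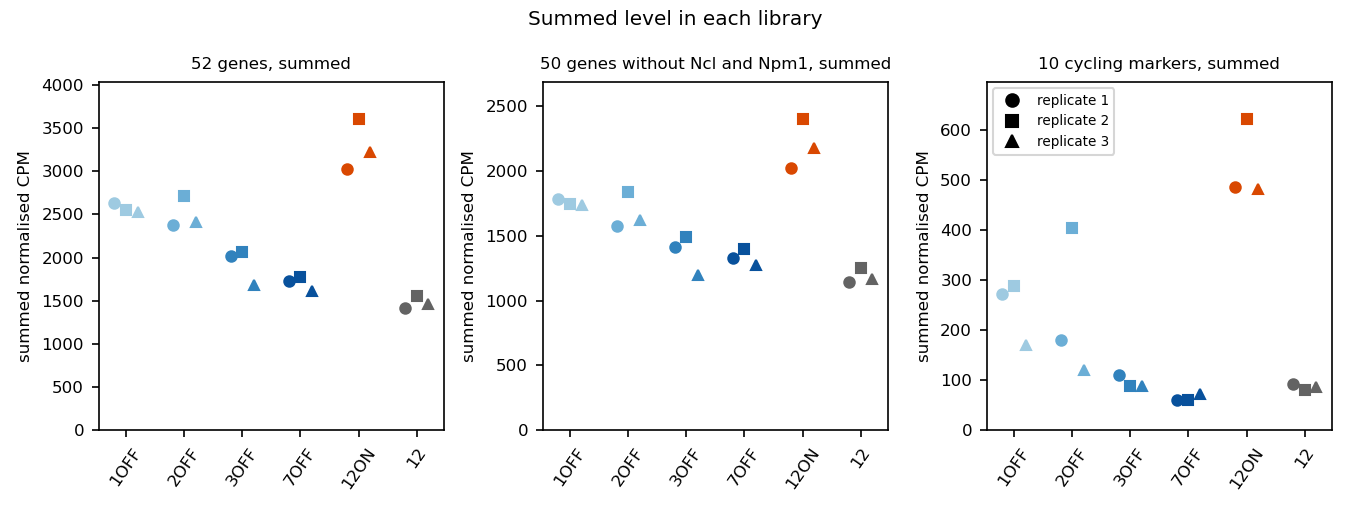
Summed normalised CPM in each library, by group and replicate (marker shape), of the 52 ribosome assembly genes (left), of 50 without Ncl and Npm1 (middle) and of 10 markers of cycling cells (right), on linear axes that start at 0. The 12ON livers are highest in all 3 panels, and 2OFF replicate 2 stands above the other 2OFF livers, with 2714 CPM in the left panel and 405 CPM in the right.

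In 7OFF, 43 of the 52 were lower than in 12ON and 2 higher, against 22.7% of all genes lower and 21.4% higher, and the median log2 fold change of the 52 was -0.74, or 0.01 over all genes. At least 2-fold lower were 19 of the 52, against 9.23% of all genes. Box C/D genes had the lowest median (-1.53), followed by nucleolar RNA-binding (-1.24), polymerase I (-1.06), box H/ACA (-1.06), large subunit (-0.69) and small subunit genes (-0.61). Nop56 had 23.9, 29.2 and 25.5 CPM in 7OFF and 81.7, 109.8 and 106 CPM in 12ON (log2 -1.92 ± 0.19, adjusted p = 3.57e-06). Rrp9 had 10.1, 11.8 and 10.5 CPM in 7OFF and 32.4, 45.0 and 38.0 CPM in 12ON (log2 -1.83 ± 0.16). Ncl had 244, 227 and 196 CPM in 7OFF and 685, 808 and 708 CPM in 12ON (log2 -1.72 ± 0.12). In all 3 genes every 7OFF liver was far below every 12ON liver. Among polymerase I genes Polr1b had a log2 fold change of -1.42 ± 0.15, and the smallest, Polr1c, -0.41 ± 0.12, which did not pass without 12ON replicate 2 (-0.33). The 2 higher genes were Rcl1, with 136, 81.2 and 79.9 CPM in 7OFF and 67.7, 59.9 and 57.5 CPM in 12ON (log2 0.68 ± 0.17), and Pno1, with 27.8, 27.4 and 24.1 CPM in 7OFF and 21.4, 21.7 and 23.1 CPM in 12ON (log2 0.26 ± 0.09), which was at -0.17 when scaled to library totals. Replicate 1 of 7OFF stood apart for Rcl1, whose log2 fold change was 0.38 without it and still passed. The call of Rcl1 ended when scaled to library totals (0.24) and with the mitochondrial term (0.54, adjusted p = 0.0519). The call of Pno1 ended without 7OFF replicate 1 or 2 or any 12ON replicate (log2 0.22 to 0.28), and with the mitochondrial term (0.17). Calls also ended for Noc3l (-0.28) without 7OFF replicate 1 (-0.20) or 2 (-0.28) or 12ON replicate 2 (-0.22), for Rrn3 (-0.45) without 7OFF replicate 2 (-0.30), and for Bysl (-0.38) without 7OFF replicate 3 (-0.31). Nop10, Utp20, Imp3, Tsr1, Ltv1, Rrp15 and Ftsj3 did not pass. Of the 105 other ribosome biogenesis genes 67 were lower and 5 higher.

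In 3OFF, 47 of the 52 were lower than in 12ON and 1 higher, against 17.0% of all genes lower and 15.3% higher, with a median log2 fold change of -0.72. At least 2-fold lower were 11, against 5.59% of all genes. Nop56 had 40.6, 41.2 and 24.6 CPM in 3OFF and 81.7, 109.8 and 106 CPM in 12ON (log2 -1.48 ± 0.18). Rrp1b had 7.67, 8.43 and 5.58 CPM in 3OFF and 16.5, 21.0 and 20.1 CPM in 12ON (log2 -1.41 ± 0.20). Neither gene overlapped between the groups, although replicate 3 of 3OFF lay well below the other 2. That library was the lowest of its group for 49 of the 52 genes, and without single libraries the count passing was 45 to 48. The higher gene was Rcl1 (0.52 ± 0.17), whose call ended without 3OFF replicate 1 (0.47) or 2 (0.49) or 12ON replicate 2 (0.49) or 3 (0.46), and when scaled to library totals (0.20). Tsr1 (-0.28 ± 0.08) and Ltv1 (-0.38 ± 0.11), which did not pass between 12ON and group 12, were lower here. Polr1c, Imp3, Pno1 and Ftsj3 did not pass. Calls ended for Rrn3 (-0.41) without 3OFF replicate 1 (-0.40) or 3 (-0.36) or 12ON replicate 3 (-0.41), for Rrp15 (-0.42) without 3OFF replicate 1 (-0.40) or 3 (-0.32) or 12ON replicate 2 (-0.41), and for Utp20 (-0.50) without 12ON replicate 2 (-0.41). Of the 105 other ribosome biogenesis genes 72 were lower and 4 higher.

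In 1OFF no member passed against 12ON, in a comparison where 0.00562% of all genes passed. The values still lay on one side. Of the 52, 51 had a lower mean in 1OFF, the median log2 fold change was -0.35, or 0.00 over all genes, and 44 did not overlap with 12ON, against 15.0% of all genes. At an unadjusted p under 0.05 there were 38 of the 52 in edgeR, against 14.4% of all genes, and DESeq2 called 12 of the 52 lower after adjustment, against 2.46% of the genes it tested. Nolc1 had 41.8, 38.0 and 37.8 CPM in 1OFF and 58.0, 70.2 and 60.9 CPM in 12ON (log2 -0.68 ± 0.13, adjusted p = 0.0962). In 2OFF likewise no member passed, as no gene of the 17789 did (0% called). The median was -0.39, 45 of the 52 did not overlap with 12ON, against 12.2% of all genes, and 46 had an unadjusted p under 0.05, against 17.1% of all genes. Here DESeq2 called 29 of the 52 lower, against 3.99% of the genes it tested. Nolc1 had 31.9, 49.0 and 36.4 CPM in 2OFF and 58.0, 70.2 and 60.9 CPM in 12ON (log2 -0.69 ± 0.13, adjusted p = 0.0503). The count moved most with 1 library. Replicate 2 of 2OFF was the highest of its group for 43 of the 52 genes and had the highest level of cycling markers, and without it 32 of the 52 passed, all lower, in a fit where 5.43% of all genes passed as lower in place of 0%. Without 12ON replicate 1 the count was 2.

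Against group 12, also labelled as without activation, most of the 52 genes were higher in 1OFF and 2OFF, and 2 of them in 7OFF. In 1OFF 42 of the 52 were higher and 1 lower, against 17.1% of all genes higher and 16.3% lower, with a median log2 fold change of 0.62. In 2OFF 39 were higher and 3 lower, against 18.1% higher and 17.0% lower, with a median of 0.55. In 3OFF 20 were higher and 2 lower, against 9.47% higher and 7.95% lower, with a median of 0.26. In 7OFF 2 were higher and none lower, against 2.47% higher and 3.31% lower, with a median of 0.19. In 1OFF the medians by role were 1.29 for box C/D genes, 1.26 for nucleolar RNA-binding and 0.96 for box H/ACA genes. They were 0.67 for polymerase I, 0.59 for large subunit and 0.48 for small subunit genes. By their labels the groups here differ in days after injury, and they share group 12 with the comparison of 12ON. Over all 17789 genes, 5939 passed in 1OFF and 6236 in 2OFF against group 12. Against 12ON, 1 gene passed in 1OFF and 0 in 2OFF. Which reading of the OFF names holds was not tested. Cell type markers moved beside these genes, and their part was not tested. In both 1OFF and 2OFF 8 of 9 hepatocyte markers were lower than in group 12 and 1 higher, with sums of 44841 to 52116 CPM in 1OFF, 44584 to 50433 CPM in 2OFF and 119343 to 128676 CPM in group 12. Markers of cycling cells were higher for 10 of 10 in 1OFF and 9 of 10 in 2OFF, and cholangiocyte markers for 6 of 7 in 1OFF and 3 of 7 in 2OFF. In each of these groups 5 of 7 sinusoidal endothelial and 5 of 8 Kupffer cell and macrophage markers were lower. In 3OFF 3 of 9 hepatocyte markers were lower and no cycling marker passed, and in 7OFF no hepatocyte marker was lower and 6 of 8 Kupffer cell and macrophage markers were.

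**Figure D4:**
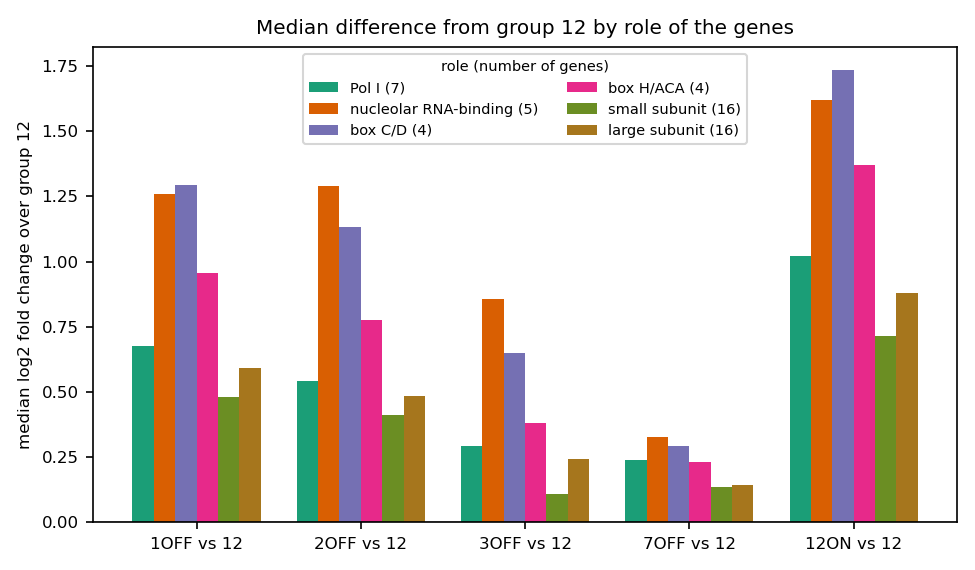
Median log2 fold change over group 12 (bars) of the genes of each role, for the 4 OFF groups in order of the days in their names and for 12ON. Medians of box C/D genes are 1.29 in 1OFF, 0.29 in 7OFF and 1.74 in 12ON, and those of small subunit genes are 0.48, 0.13 and 0.72.

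Ncl shows the course in single livers. It had 564, 532 and 530.2 CPM in 1OFF, 539, 579.9 and 512 in 2OFF, 366, 361 and 302 in 3OFF and 244, 227 and 196 in 7OFF, against 160.2, 189 and 184 CPM in group 12. Each OFF group lay clear of group 12, with the lowest livers in 7OFF, and the log2 fold change was 1.61 ± 0.12 in 1OFF (adjusted p = 6.3e-07) and 0.32 ± 0.12 in 7OFF (adjusted p = 0.118). Polr1b had 33.6, 33.3 and 39.8 CPM in 1OFF, 34.3, 39.2 and 34.1 in 2OFF, 27.3, 27.4 and 19.1 in 3OFF and 15.1, 21.8 and 16.9 in 7OFF, against 12.6, 14.2 and 12.7 CPM in group 12. Its log2 fold change was 1.43 ± 0.15 in 1OFF and 0.45 ± 0.15 in 7OFF (adjusted p = 0.0941). The 2 genes that passed as higher in 7OFF, where 2.47% of all genes did, were Npm1 (0.38 ± 0.11, adjusted p = 0.0465) and Fbl (0.37 ± 0.10, adjusted p = 0.0422). These calls were fragile. Leaving out 7OFF replicate 1 or 2 or group 12 replicate 1 left 0, 0 and 0 members passing, leaving out group 12 replicate 2 or 3 left 0 and 1, and leaving out 7OFF replicate 3 left 4.

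Lower calls against group 12 fell on Pno1, Ltv1 and Rcl1, genes of small subunit assembly, and none of them held with the mitochondrial term. Every library of group 12 had a lower mitochondrial share than any other library, so the term and group 12 cannot be fully told apart here. Pno1 had 22.8, 19.4 and 20.4 CPM in 1OFF, 17.4, 21.1 and 18.9 in 2OFF, 18.8, 20.1 and 18.6 in 3OFF and 27.8, 27.4 and 24.1 in 7OFF, against 27.6, 32.4 and 28.8 CPM in group 12. It was below every liver of group 12 in 1OFF, 2OFF and 3OFF, and overlapped with group 12 in 7OFF. Its log2 fold change was -0.63 ± 0.09 in 2OFF (adjusted p = 0.000129). Ltv1 had 13.3, 13.8 and 14.3 CPM in 2OFF and 13.4, 13.7 and 13.3 in 3OFF, against 17.3, 21.3 and 18.4 CPM in group 12. Every liver of both OFF groups was below group 12 (log2 -0.46 ± 0.11 and -0.49 ± 0.11). Rcl1 was lower in 2OFF (-0.55 ± 0.17, adjusted p = 0.0193), a call that ended without 2OFF replicate 2 (-0.45) or group 12 replicate 2 (-0.51), and did not pass in the other OFF groups. Scaled to library totals, Pno1 still passed in 2OFF (-0.26) and 3OFF (-0.45) but not in 1OFF (-0.16), and the calls ended for Ltv1 in 2OFF (-0.10) and 3OFF (-0.32) and for Rcl1 in 2OFF (-0.20). With the mitochondrial term Pno1 was at -0.34 in 1OFF, -0.46 in 2OFF and -0.49 in 3OFF.

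Single libraries weighed on the smaller counts. In 3OFF the 22 members that passed against group 12 became 10 without 3OFF replicate 1, 9 without 3OFF replicate 2, 10 without group 12 replicate 1 and 12 without group 12 replicate 3. With a term for the mitochondrial share 10 passed. In 1OFF and 2OFF leaving out any single library of the groups compared left 38 to 39 and 34 to 43 members passing. The mitochondrial term took them from 43 to 31 in 1OFF and from 42 to 28 in 2OFF. With it 9.60% and 9.47% of all genes were called, in place of 33.4% and 35.1%.

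Between successive OFF groups, most calls fell in the step from 2OFF to 3OFF. In 3OFF 19 of the 52 were lower than in 2OFF and none was higher, against 3.95% of all genes lower and 2.84% higher, with a median log2 fold change of -0.35. Nop56 (-0.80 ± 0.18), Polr1e (-0.75 ± 0.17), Nop58 (-0.68 ± 0.17) and Nhp2 (-0.67 ± 0.13) had the lowest values of those that passed. This count fell to 0 without 2OFF replicate 2 or without 3OFF replicate 3, the libraries named above as high and low in their groups, to 2 without 3OFF replicate 2 and to 12 without 3OFF replicate 1. Between 2OFF and 1OFF no member passed and no gene did (0% called), the median was -0.08, and 1 of the 52 had an unadjusted p under 0.05, against 2.24% of all genes, while DESeq2 called none. Between 7OFF and 3OFF 3 members were lower and 2 higher, against 5.04% of all genes lower and 3.02% higher. The lower genes were Ncl (-0.63 ± 0.12), Npm1 (-0.53 ± 0.11) and Fbl (-0.41 ± 0.10), and the higher ones Ltv1 (0.49 ± 0.11) and Pno1 (0.46 ± 0.09). Without 3OFF replicate 3 the count was 10 rather than 5, the call of Fbl ended without 3OFF replicate 1 (-0.36) or 2 (-0.39) or 7OFF replicate 3 (-0.38), and that of Ltv1 without 7OFF replicate 2 (0.36).

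**Figure D5:**
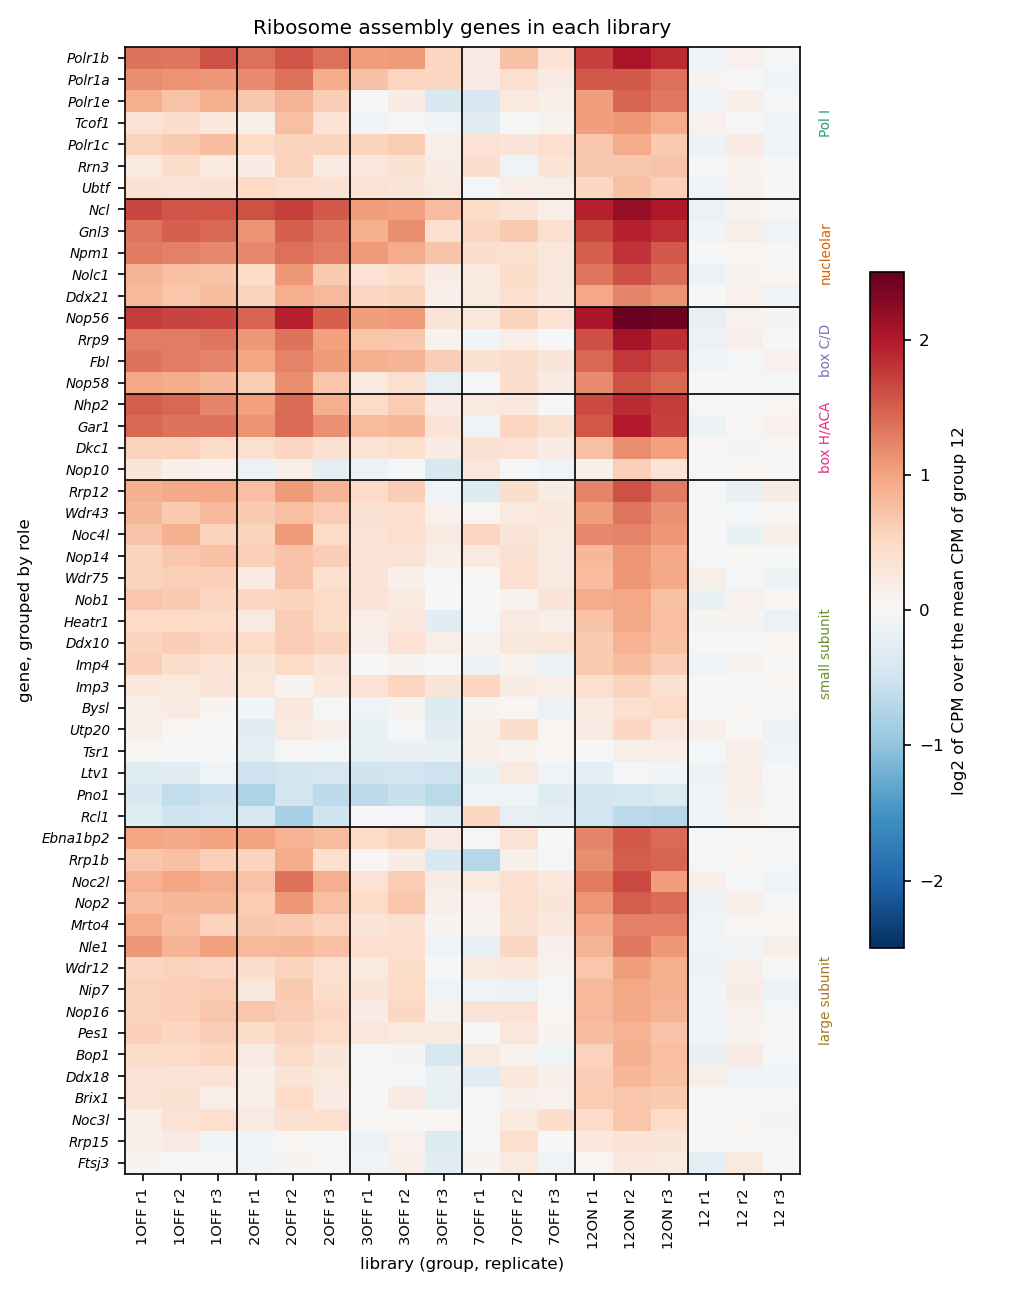
Log2 of each library's normalised CPM over the mean CPM of group 12 (colour) for the 52 ribosome assembly genes (rows, by role) in the 18 libraries (columns, by group and replicate, r1 to r3). Red is above and blue below group 12: 12ON has the highest mean for 49 of the 52 genes, and Pno1, Ltv1 and Rcl1 at the foot of the small subunit rows are the exceptions (scaled to library totals, Pno1 is 0.07 above group 12 in 12ON).

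Seen over all 6 groups, 12ON had the highest mean for 49 of the 52 genes, group 12 for Pno1 and Ltv1, and 7OFF for Rcl1, where replicate 1 alone exceeded every liver of group 12. Group 12 had the lowest mean for 36 and 3OFF for 10. In each group except 1OFF, 1 library was the highest of its group for most of the 52 genes and another the lowest. Replicate 2 was the highest for 34 in 7OFF and 32 in group 12, and replicate 1 the lowest for 28 and 31. In 1OFF no library was the highest for more than 23 or the lowest for more than 26. Replicate 2 of 12ON was the highest of its group for 45 of the 52 and also had high Xist and the highest cycling markers of its group, at 622 CPM, and 45 to 48 members passed against group 12 when any single library was left out. Replicate 3 of 3OFF, lowest for 49 of the 52, also had high Xist. The fit with a term for high or low Xist gave 48 members past the threshold for 12ON against group 12, 48 for 3OFF and 44 for 7OFF against 12ON.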

How the data were processed

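The submitters' processing notes name Trim Galore, TopHat2 and the build mm10. The authors deposited raw counts per gene. Per the file headers, these come from featureCounts 1.5.0-p1 with the exons of Ensembl 82 (GRCm38). A read was counted for every gene it overlapped by 10 bases, without strand, and multi-mapping reads were left out.

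Genes were named through a reference table (34599 of 34937). The 18 libraries, from 3 mice a group, were fitted together with edgeR 4.0.16 (R 4.3.3) after filterByExpr (minimum count 10) and TMM scaling. The fit had 12 residual degrees of freedom, and the common biological variation (coefficient) was 0.202. Comparisons were two-sided quasi-likelihood tests with Benjamini-Hochberg adjustment over 17789 genes at 0.05. The design text names 5 of the 12 comparisons, and the others place the OFF groups beside group 12 and beside each other. Standard errors are the log2 fold change over the root of F. Replicates differed beyond sampling noise (chi-square per gene of 31.6 to 287), so no library was a copy. In simulated counts all groups had the same means, except for 50 genes at each fold size changed in 1 group. For 12ON vs 12, 82% of 50 genes changed 2-fold and 32% of 50 changed 1.5-fold were recovered (17763 genes, 2 false calls). For 7OFF vs 12ON it was 72% and 36% (17765 genes, 8 false calls). In the data 46.6% and 44% of genes passed in these comparisons, so the simulated rates do not describe them.

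Members, roles, pathway and marker lists were chosen with earlier results of these data known. All 52 members could be named, and of each other list up to 3 genes with the largest and 3 with the smallest fold change among those passing in 12ON vs 12. One gene that this rule names is not reported here. Promoters shown are the 5 members with the most CACGTG matches and 2 passing members without one. Alternatives were size factors of DESeq2 type, library totals, no filter, a replicate block, terms for mitochondrial share and Xist, fits of 2 groups alone, DESeq2 1.42.0 and leaving out each library.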

Additional observations from a re-analysis of the deposited data

How the results depend on the processing

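In 12ON vs 12, 3OFF vs 12ON and 7OFF vs 12ON the number of the 52 genes past the threshold stayed within 1.5 times under every alternative run. It did so for 1OFF and 2OFF vs 12 too, although the mitochondrial term took these from 43 to 31 and from 42 to 28. For 2OFF vs 1OFF the count was 0 in every run, and the remaining counts moved. Against 12ON, 1OFF gave 0 as reported, 3 in the fit of the 2 groups alone and 12 with DESeq2, and 2OFF gave 0 as reported, 8 on library totals and 29 with DESeq2. Against group 12, 3OFF gave 22 as reported, 10 with the mitochondrial term and 12 in the 2 groups alone, and 7OFF gave 2 as reported, 1 with RLE size factors, 0 without the filter, 0 in the 2 groups alone and 5 with DESeq2. For 3OFF vs 2OFF the count was 19 as reported, 36 on library totals, 11 without the filter and 0 in the 2 groups alone, and for 7OFF vs 3OFF it was 5 as reported, 0 in the 2 groups alone and 9 with DESeq2. On library totals 7OFF vs 3OFF had 1 higher and 3 lower genes, in place of 2 and 3. Leaving out 1 library at a time gave 45 to 48 for 12ON vs 12, 0 to 0 for 1OFF vs 12ON, 0 to 32 for 2OFF vs 12ON, 45 to 48 for 3OFF vs 12ON, 42 to 45 for 7OFF vs 12ON, 38 to 39 for 1OFF vs 12, 34 to 43 for 2OFF vs 12, 9 to 22 for 3OFF vs 12, 0 to 4 for 7OFF vs 12, 0 to 0 for 2OFF vs 1OFF, 0 to 18 for 3OFF vs 2OFF and 4 to 10 for 7OFF vs 3OFF. Fits without a library or of 2 groups alone have fewer samples, and otherwise the cause was not tested. Among single genes the direction turned for Pno1, on library totals, to 0.0717 in 12ON vs 12 and to -0.166 in 7OFF vs 12ON. That scaling moved the median of all genes by 0.49 in 12ON vs 12, -0.41 in 7OFF vs 12ON and -0.31 in 3OFF vs 12ON. Replicate numbers are shared between groups, but same-numbered libraries did not deviate together throughout (correlations of -0.05 to 0.32 in 12ON vs 12 and -0.18 to -0.01 in 3OFF vs 12ON), so the numbers were not taken as pairs. A replicate block gave 1 gene for 1OFF vs 12ON, 18 for 2OFF vs 12ON, 4 for 7OFF vs 12 and 8 for 7OFF vs 3OFF, and kept the other counts within 1.5 times (49 for 12ON vs 12). Over all genes, 12ON vs 12 gave 3820 calls with the mitochondrial term in place of 8298. In comparisons with group 12 that term overlaps with the difference between the groups. Depth was at least 93 counts per gene and library for these genes, and counting error was not separated from the spread between mice.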

Other observations

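The RNA exosome trims precursor ribosomal RNA and degrades other RNA. Of its 14 tested genes, 11 were higher in 12ON livers than in group 12 and 1 was lower, against 24.0% of all genes higher and 22.6% lower. The median (log2) of the 14 was 0.62. Exosc8, a subunit of the exosome ring, averaged 20.7 CPM in 12ON and 8.36 CPM in group 12 (log2 1.31 ± 0.14, SE, n = 3 each), and Dis3, its nuclease, 26.4 CPM in 12ON and 11.1 CPM in group 12 (log2 1.24 ± 0.14). The lower gene was C1d, a cofactor of the exosome, with 26.9 CPM in 12ON and 35.0 CPM in group 12 (log2 -0.38 ± 0.08).

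RNA polymerase III and its factors make transfer RNA and 5S ribosomal RNA. Of 22 of their genes, 8 were higher in 12ON than in group 12 and 1 lower. Of all genes, 24.0% were higher and 22.6% lower. The median (log2) of the 22 was 0.16. The alternative subunits Polr3gl (log2 1.53 ± 0.16) and Polr3g (log2 1.34 ± 0.12) had the largest values, and Crcp, also a subunit, was lower (log2 -0.51 ± 0.11). In 7OFF relative to 12ON, 8 of the 22 were lower and 1 higher, against 22.7% of all genes lower and 21.4% higher. Their median was -0.18. Whether the exosome, polymerase III and ribosome assembly genes differ in their response was not tested.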
